A study of Caenorhabditis elegans with 6 samples.

Results

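The genes described here are the ribosomal protein genes of *C. elegans*, taken as every protein-coding gene of the Ensembl annotation (release 115, WBcel235) whose name starts with rpl- (large subunit) or rps- (small subunit). There are 78 of them among 19973 protein-coding genes, 47 rpl- and 31 rps-. Chromatin accessibility was measured by ATAC-seq, in which the Tn5 transposase cuts open DNA, in germ nuclei isolated from young adult worms grown at 20°C. The wild type was strain VC2010 (3 samples), and the mutant was strain SX2499, which carries prde-1(mj207), an allele used as a null (3 samples). PRDE-1 belongs to a complex that binds upstream of the clustered piRNA genes and is needed for their transcription by RNA polymerase II, and the mutant strain becomes progressively sterile. The authors merged the 3 samples of each genotype and called 1 list of peaks per genotype, so no value below has a replicate error, no difference between genotypes could be tested, and depth per sample is unknown. Shares of genes are given with 95% Wilson intervals, which cover counting error only, beside the same share over all protein-coding genes.

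Ribosomal proteins assemble with ribosomal RNA into the small and large subunits of the ribosome, and growing cells make them in nearly equal amounts and in very large numbers. Their genes are highly transcribed and active in almost every cell type, including the germ line, which loads ribosomes into oocytes. Many worm genes are trans-spliced: the first stretch of the transcript (the outron) is removed and replaced with a short spliced leader, so the annotated 5′ end of such a gene is a splice acceptor that lies downstream of the place where transcription starts. Not every name in the list fits it. RefSeq describes the product of rpl-42 as a NAM-associated domain-containing protein and that of rpl-24.2 as a putative ribosome biogenesis protein, while the other 76 members are kept here under their ribosomal names.

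The wild type list held 13996 peaks and the prde-1 list 9674, with median widths of 334 and 290 bp. Of the wild type peaks, 5047 (36.1%) overlapped no prde-1 peak, against 185 (1.91%) the other way, so a peak missing from the shorter list can be a peak under the calling threshold. Peaks were ranked by score, separately in each list, and rank 1 has the highest score. Neither list had a peak at the prde-1 gene. Peaks were found at germ line genes and at somatic genes. In wild type 6 of 10 germ line markers had a peak at the 5′ end (gld-1, glh-1, htp-3, mex-5, oma-1 and rme-2), and glp-1, him-3, pgl-1 and syp-1 had none. So did 3 of 4 muscle, 3 of 4 intestine, 3 of 4 hypodermis and 1 of 4 neuron markers have one. In prde-1 the counts were 6, 2, 4, 0 and 1. Over all protein-coding genes the shares were 30.6% and 25.1%, and lists this short cannot measure the part of a tissue. The prde-1 worms were also harvested later after plating than wild type, at a matched stage, so age in hours and genotype cannot be told apart.

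Nearly every ribosomal protein gene had a peak within 500 bp of its 5′ end. In wild type 75 of 78 had one (96.2%, interval 89.3% to 98.7%), against 30.6% of all protein-coding genes. In prde-1 72 of 78 had one (92.3%, interval 84.2% to 96.4%), against 25.1%. Counting peaks anywhere in the gene as well added no member in either genotype, while the background became 39.4% in wild type and 31.2% in prde-1. All 31 rps- genes and 44 of 47 rpl- genes had a wild type peak. The members without any were rpl-25.1, rpl-37 (eL37) and rpl-42, and their nearest wild type peaks lay 2971, 3208 and 4371 bp from the 5′ end, well outside the 500 bp limit. The farthest peaks still counted were those of rpl-34, rps-29 and rps-27, with edges 340, 412 and 457 bp away.

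Other genes of the translation machinery had fewer such peaks. In wild type they were found at 33 of 41 translation factor genes (80.5%, interval 66.0% to 89.8%), at 41 of 70 mitochondrial ribosomal protein genes (58.6%, interval 46.9% to 69.4%) and at 16 of 31 aminoacyl-tRNA synthetase genes (51.6%, interval 34.8% to 68.0%). The 6 cytoplasmic ribosomal protein or ribosome-associated genes that carry other names (rla-0, rla-1, rla-2, ubl-1, ubq-2 and rack-1) all had one. Short genes as a class did not share this: among the 8382 protein-coding genes no longer than the longest member, rpl-3 with 1734 bp, 26.6% had a wild type 5′ end peak.

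**Figure D1:**
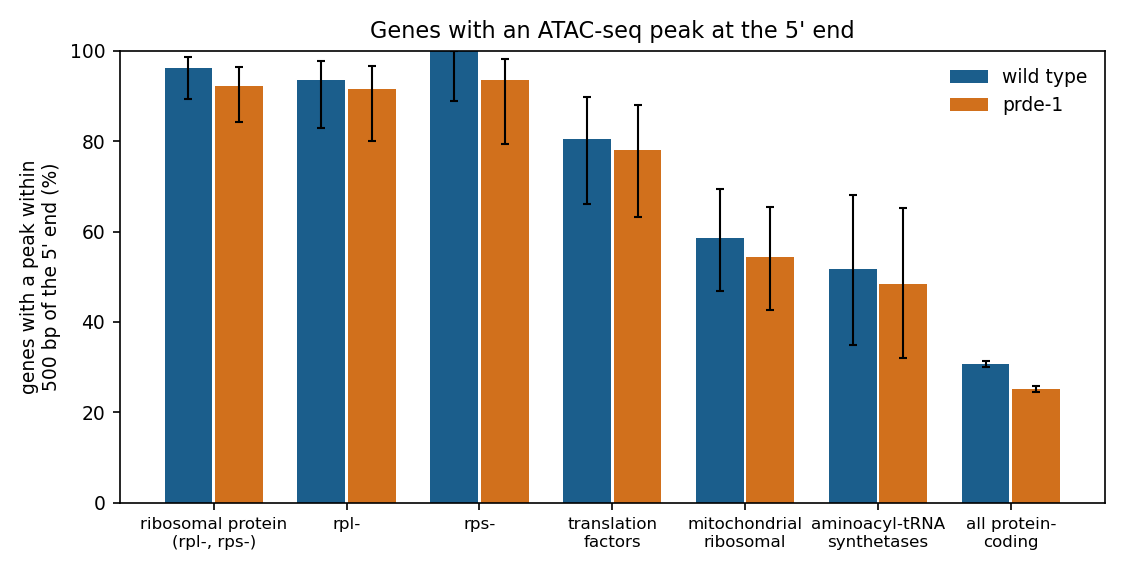
Share of genes (%, vertical axis) with an ATAC-seq peak within 500 bp of the 5′ end, for ribosomal protein genes, their rpl- and rps- subsets and comparison lists, in wild type (blue) and prde-1 (orange). Error bars are 95% Wilson intervals over genes. Ribosomal protein genes reach 96.2% and 92.3%, and all protein-coding genes 30.6% and 25.1%.

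Peak cover at these genes had 2 parts, before the 5′ end and over the gene. The share of the 78 genes with a given position inside a wild type peak reached 83.3% at 340 bp before the 5′ end, dropped to 28.2% at 140 bp before it, and was 79.5% at 220 bp into the gene. In prde-1 the corresponding values were 76.9% at 340 bp before the 5′ end, 16.7% at 70 bp before it and 59.0% at 270 bp into the gene. Over all protein-coding genes there was 1 maximum before the 5′ end, 17.0% at 150 bp in wild type, and 8.52% of the genes were in a peak 200 bp into the gene. The dip means that the 5′ end itself was covered at fewer than 50% of the members, at 36 of 78 in wild type (46.2%) and at 25 of 78 in prde-1 (32.1%).

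**Figure D2:**
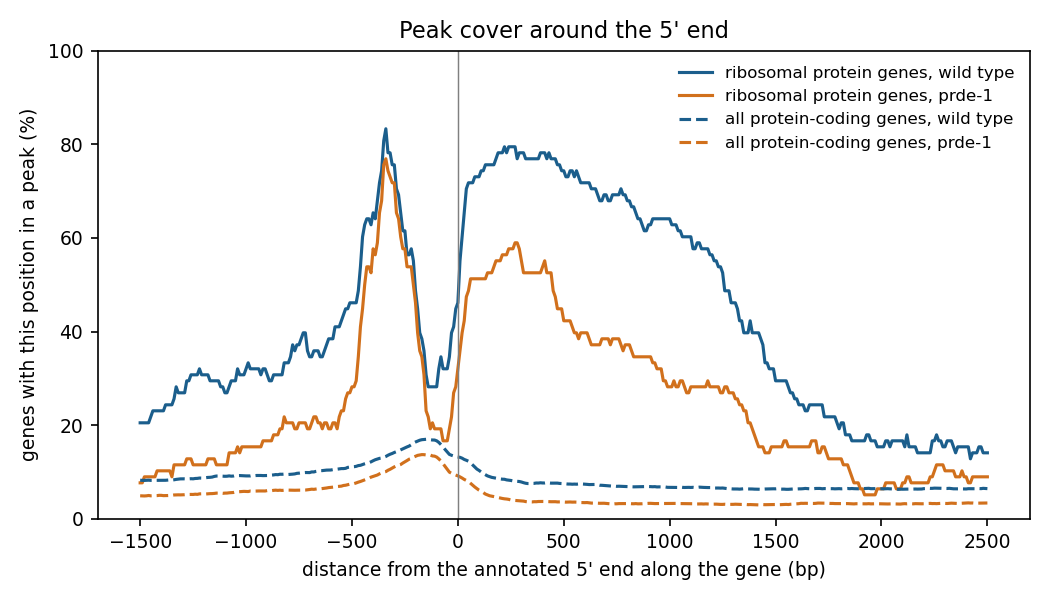
Share of genes (%) whose position at each distance from the annotated 5′ end (bp, negative is upstream) lies in a peak, for the 78 ribosomal protein genes (solid) and all 19973 protein-coding genes (dashed), wild type in blue and prde-1 in orange. The upstream maximum at 340 bp is 83.3% in wild type and 76.9% in prde-1, whereas the plateau over the gene is 79.5% and 59.0% at its highest.

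The upstream part was a separate, narrow peak at most members. An upstream peak, defined by a summit 1 to 500 bp before the 5′ end, was present at 64 of 78 members in wild type (82.1%, interval 72.1% to 89.0%; 21.7% of all protein-coding genes) and at 67 of 78 in prde-1 (85.9%, interval 76.5% to 91.9%; 19.4% of all). The subunits were alike in this, with 38 of 47 rpl- and 26 of 31 rps- genes in wild type. The median width of these peaks was 226.5 bp. Their summits lay a median of 288 bp before the 5′ end, with quartiles at 360 and 261 bp, while the median over the 4331 protein-coding genes with an upstream peak was 184 bp. They ranked higher than those of other genes, with a median at 20.6% of the list from the top against 40.0%.

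**Figure D3:**
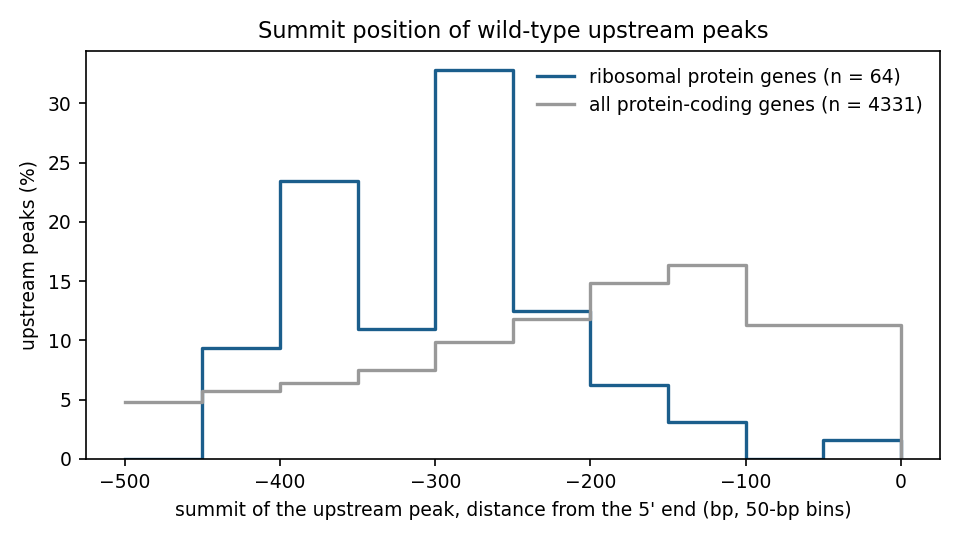
Distance of the wild type upstream summit from the 5′ end (bp, 50-bp bins) against the share of upstream peaks (%), for 64 ribosomal protein genes (blue) and 4331 protein-coding genes (grey). The median is −288 bp for ribosomal protein genes and −184 bp for all.

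No upstream peak of a ribosomal protein gene was missing from the prde-1 list, which was not particular to these genes. Of the comparison lists, 0 of 30 translation factor genes with an upstream peak had no prde-1 counterpart. The counts were 0 of 4 ribosomal genes with other names, 2 of 38 mitochondrial ribosomal protein genes (5.26%) and 2 of 12 aminoacyl-tRNA synthetase genes (16.7%). Each of the 64 wild type upstream peaks overlapped a prde-1 peak, and a count of 0 of 64 allows a share of up to 4.69% by the limit of 3 counts (5.66% as the upper Wilson bound), against 13.9% without a counterpart over all protein-coding genes. This has to be read with rank: 31 of the 64 were in the top 20% of the list by score and 27 in the next 20%, and at all protein-coding genes 0.398% and 1.20% of the upstream peaks in these parts of the list had no counterpart. With the same number of peaks taken from each list, the background share without a counterpart was 4.34%, and that of the members stayed at 0. In the upper 50% of each list by score it was 1.64% of members and 20.7% of all. Summits also stayed in place. At 53 of the 64 members with an upstream peak in both lists, the best-ranked upstream summits lay within 5 bp of each other (82.8%, interval 71.8% to 90.1%; 66.5% of 3684 protein-coding genes). The median shift was 1 bp for members and 2 bp for all, and these values were not matched for rank. Of the 3 members with an upstream summit in prde-1 alone (rpl-7A, rpl-22 and rps-1), each lay inside a wild type peak of 2144, 3166 or 6748 bp whose summit was elsewhere.

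The upstream peaks of rpl-18 (eL18), rpl-21 (eL21) and rpl-26 (uL24), all large-subunit proteins, are printed for the words they carry. These are, in order, GGTCTCG and CCTAAA, read along the gene and shown in capitals. Each word was more frequent around the upstream summits of members than around those of all protein-coding genes, but most members lacked it there. Each printed peak runs 5′ to 3′ toward the gene, from the RefSeq WBcel235 sequence (the ce11 assembly). That of rpl-18 is chrIV:13777612-13777792 (plus strand, wild type rank 5548 and prde-1 rank 3918). That of rpl-21 is chrIII:8130437-8130684 (minus strand, ranks 1917 and 1178). That of rpl-26 is chrII:8602431-8602633 (plus strand, ranks 5118 and 3828), and its first 10 bases fall in exon 1 of the divergent gene cpf-1, while the other sequences are intergenic.
rpl-18: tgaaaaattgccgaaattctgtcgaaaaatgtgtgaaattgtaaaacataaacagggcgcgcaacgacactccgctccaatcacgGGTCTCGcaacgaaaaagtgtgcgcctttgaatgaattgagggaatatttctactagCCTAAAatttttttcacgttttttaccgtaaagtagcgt
rpl-21: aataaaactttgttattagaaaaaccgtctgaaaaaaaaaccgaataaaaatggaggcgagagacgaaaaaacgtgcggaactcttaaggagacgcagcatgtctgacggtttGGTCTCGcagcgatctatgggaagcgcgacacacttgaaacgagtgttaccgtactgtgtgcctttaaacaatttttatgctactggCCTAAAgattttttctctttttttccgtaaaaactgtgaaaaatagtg
rpl-26: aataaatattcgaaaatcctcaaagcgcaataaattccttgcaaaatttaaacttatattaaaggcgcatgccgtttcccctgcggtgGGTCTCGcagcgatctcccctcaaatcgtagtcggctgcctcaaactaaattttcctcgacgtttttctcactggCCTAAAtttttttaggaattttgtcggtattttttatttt

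These words were picked after all words in the windows had been counted, so their shares describe these sequences and are no test. In the 201 bases centered on the wild type upstream summit, CCTAAA stood along the gene at 23 of 64 members (35.9%, interval 25.3% to 48.2%) and at 4.64% of 4331 protein-coding genes. On the opposite strand it stood at 10 of 64 members (15.6%) and 3.97% of all. GGTCTCG stood along the gene at 19 of 64 members (29.7%, interval 19.9% to 41.8%) and at 4.39% of all, and on the opposite strand at 5 of 64 (7.81%) and 4.04%. The words kept an order: 7 members had both along the gene (rpl-18, rpl-21, rpl-26, rpl-31, rpl-39, rps-6 and rps-11), and in all 7 GGTCTCG came first, with 46 to 87 bases between the starts of the words and a median of 65. Of the protein-coding genes that are not members, 12 had both, 5 of them in that order. CCTAAA lay downstream of the summit at 22 of 23 members, a median of 69 bases past it and 210 bases before the annotated 5′ end. Runs of T followed by C were common too, with TTTTTC along the gene at 52 of 64 members (81.2%) and 43.4% of all. Among words of 8 letters counted on both strands in the 151 bases around the summit, GCGAGACC, whose other strand reads GGTCTCGC, had the largest difference in percentage points: 21 of 61 distinct member peaks held it (34.4%) and 181 of 3647 of all (4.96%). It was in the 300 bases before the 5′ end of 13 of 78 members (16.7%) and of 1.59% of protein-coding genes.

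Most of the annotated 5′ ends from which these distances were measured follow the letters of a splice acceptor. The base before the 5′ end completed the letters CAG at 61 of 78 members (78.2%, interval 67.8% to 85.9%) and at 22.1% of protein-coding genes, and TTTCAG was found in the last 30 bases at 39 of 78 (50.0%; 15.8% of all). The start codon followed after a median of 8 bases, against 15 for all genes. The 30 bases before the 5′ end are shown for rpl-18, rpl-21 and rps-3 (uS3), which end in the acceptor (CAG in capitals), and for rpl-26, which does not, at chrIV:13777835-13777864, chrIII:8130228-8130257 (minus strand), chrIII:6206773-6206802 and chrII:8602755-8602784.
rpl-18: aaattttgatttttaacgttatttttgCAG
rpl-21: attgacacctctatcaaaaatttttttCAG
rps-3: cttcgctaatattaatattcaaattttCAG
rpl-26: attgttacataatataatatttattttttc

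Members with CAG at the 5′ end had upstream summits a median of 298 bp away (n = 53), and those without it a median of 265 bp (n = 11). Protein-coding genes with CAG at the 5′ end had a median of 232 bp (n = 1526), and 44.7% of the 4409 such genes had a wild type 5′ end peak, so the members stood apart from these genes as well. Counting both strands, TATAAA stood in the 300 bases before the 5′ end of 23 of 78 members (29.5%, interval 20.5% to 40.4%), an interval that holds the 39.6% of all protein-coding genes, and TTTTTT at 75 of 78 (96.2%, interval 89.3% to 98.7%; 82.7% of all).

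The other part of the pattern was a broad peak over the gene. At least 50% of the gene lay in wild type peaks at 60 of 78 members (76.9%, interval 66.4% to 84.9%), against 5.21% of protein-coding genes and 8.28% of those no longer than the longest member. The median member had 91.0% of its bases in wild type peaks, and 25 members were covered from end to end. Where a wild type peak on the gene, whatever share it covered, began after 200 bp before the 5′ end (53 members), it started a median of 16 bp past the 5′ end and ended a median of 342 bp past the 3′ end. Among members with at least 50% of the gene in peaks (45 members) the medians were 16 and 380 bp. For protein-coding genes no longer than the longest member (n = 1107) they were 170 and −143 bp, the latter before the 3′ end. Of the comparison lists, 11 of 41 translation factor genes, 3 of 70 mitochondrial ribosomal protein genes and 1 of 31 aminoacyl-tRNA synthetase genes had 50% of the gene in wild type peaks. The 6 ribosomal protein or ribosome-associated genes with other names were like the members, with 6 of 6 in wild type and 4 of 6 in prde-1. The members are short, with a median length of 753.5 bp against 2027 bp for all, and G and C make up a median of 44.8% of their bases against 36.4% for all. The 1041 protein-coding genes with at least 50% in wild type peaks had a median of 43.9%. What part length, base composition or the transcription of the genes had in the broad peaks was not tested.

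In wild type 45 members had an upstream peak separate from the peak on the gene, at 13 a single peak did both, 11 had a peak on the gene and no upstream peak, 6 an upstream peak alone (rpl-14, rpl-28, rpl-29, rpl-33, rpl-34 and rps-21) and 3 neither. In prde-1 the counts were 35, 11, 3, 21 and 8. No share over all protein-coding genes stands beside these combinations, so the change between the lists cannot be called particular to the members. Over all protein-coding genes, 13.9% of wild type upstream peaks and 28.8% of the best wild type peaks on the gene had no prde-1 counterpart.

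**Figure D4:**
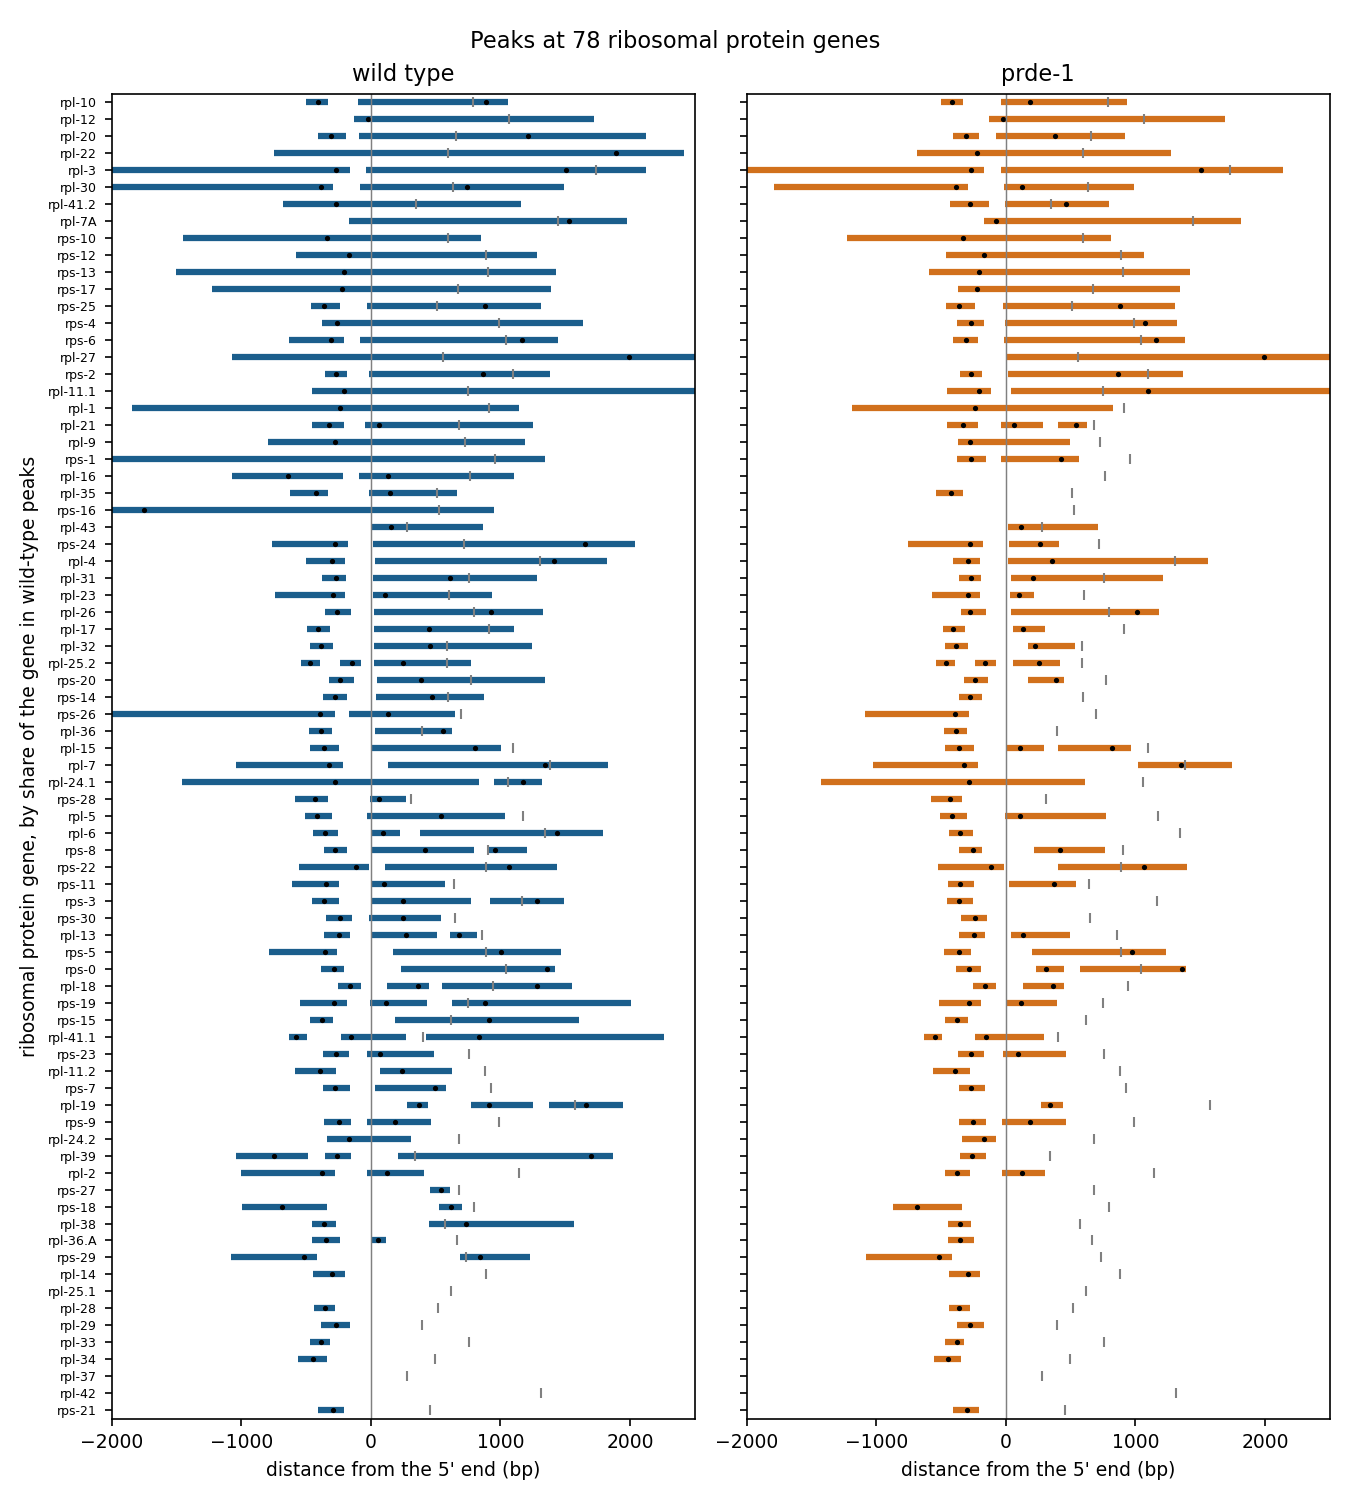
Peaks within 500 bp of the 5′ end or on the gene for each of the 78 ribosomal protein genes (rows, ordered by the share of the gene in wild type peaks), against distance from the 5′ end (bp), in wild type (left) and prde-1 (right). Bars are peaks, cut at the edges of the plot, dots are summits and grey ticks mark the 3′ end of each gene. A column of narrow peaks stands before the 5′ end in both panels, and 9 genes in wild type and 29 in prde-1 have no bar on the gene.

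The broad peaks were the part that differed between the lists. In prde-1 41 of 78 members had at least 50% of the gene in peaks (52.6%, interval 41.6% to 63.3%; 2.23% of all protein-coding genes), and the median member was covered over 53.5% of its bases. The share of the gene in peaks was lower in prde-1 than in wild type at 51 of the 69 members with some of the gene in wild type peaks (73.9%, interval 62.5% to 82.8%), against 90.9% of the 5908 protein-coding genes with such cover. Over all 78 members it was equal at 25 and higher at 2, rpl-4 (97.5% against 98.9%) and rpl-41.1 (68.0% against 72.5%). Of the 25 equal members, 15 were covered from end to end in both lists, among them rpl-3, rpl-7A, rps-4, rps-6 and rps-13, 9 had no base in a peak of either list, and rps-9 had 46.8% in both, so nearly all of them sat at an end of the scale. At 20 members prde-1 had no base of the gene in a peak where wild type had some, and at 13 of these wild type had at least 50%: rpl-6, rpl-11.2, rpl-16, rpl-35, rpl-36, rps-3, rps-7, rps-14, rps-15, rps-16, rps-26, rps-28 and rps-30. Such loss was not particular to the members. Over the 5908 protein-coding genes with cover, the lower quartile of the cover kept in prde-1 was 0. Summed over members, the prde-1 peaks covered 65.7% of the gene bases that wild type peaks covered, and summed over all protein-coding genes 47.3%, without regard to rank.

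The best-ranked wild type peak on the gene had no prde-1 counterpart at 17 of 69 members (24.6%, interval 16.0% to 35.96%), against 28.8% of protein-coding genes with such a peak. At like rank the shares of the members were the higher ones, but only in the second step of 20% did the interval lie above the background share. From the top of the list down, in steps of 20%, the members without a counterpart were 1 of 32 (3.12%, interval 0.554% to 15.7%), 5 of 21 (23.8%, interval 10.6% to 45.1%), 5 of 10, 5 of 5 and 1 of 1, against 0.85%, 7.94%, 32.4%, 64.4% and 87.2% of protein-coding genes. With equal numbers of peaks from each list, 58 of 78 members had at least 50% of the gene in wild type peaks (74.4%), against the 41 of prde-1. This cut drops only the lowest-scored wild type peaks and leaves the others at their called width. Because score grows with width, it cannot show what depth did to the broad peaks. Peaks over most of the gene were also seen at some marker genes, and they moved in different ways. Of the somatic markers, vit-2 and vit-6, yolk genes of the intestine, were 100% in wild type peaks and 95.7% and 88.4% in prde-1 peaks. Cover went to 0 in prde-1 at col-19, a cuticle collagen of the hypodermis (from 94.9%), rol-6 (58.0%) and unc-54, the muscle myosin (54.9%). The other somatic markers had 41.9% (bli-1) or less in wild type peaks, among them elt-2, ges-1, dpy-7 and myo-1 with 0. Of the germ line markers, rme-2 was 100% covered in both lists. The share went from 100% to 45.5% at glh-1, from 90.1% to 35.3% at mex-5 and from 71.6% to 0 at gld-1. In glp-1, him-3, htp-3 and syp-1 no base was covered. Over the 10 germ line markers the mean share was 45.0% in wild type and 19.3% in prde-1. The part of somatic nuclei in the peaks of ribosomal protein genes, which every tissue uses, was not tested.

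**Figure D5:**
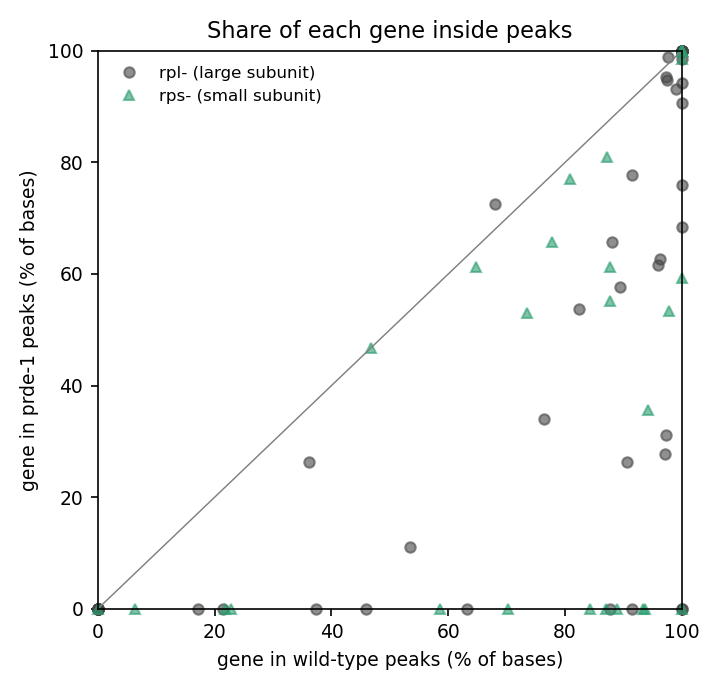
Share of each ribosomal protein gene's bases (%) inside wild type peaks (horizontal) and inside prde-1 peaks (vertical), 1 point per gene, circles for rpl- and triangles for rps-. Points on the line are equal in both. 51 genes lie below the line, 2 above it and 25 on it, and 20 of those below it lie at 0 in prde-1.

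By rank, the ribosomal protein genes stood high in both lists. The median rank of the best 5′ end peak was 2325 in wild type (quartiles 613.5 and 3268), against 5153 for the 6114 protein-coding genes with such a peak. In prde-1 it was 1959 (quartiles 1163 and 2665.5), against 4093. Relative to the length of the list this is 16.6% from the top in wild type and 20.3% in prde-1, against 36.8% and 42.3% for all genes. Score grows with width, so the best peak is often the broad one, and the summit of the best peak had a median of 249 bp before the 5′ end in wild type but an upper quartile of 576.5 bp into the gene. In prde-1 the median was −280 bp and the upper quartile −199.25 bp, both before the 5′ end.

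The 5 best-ranked wild type 5′ end peaks were 2144 to 3620 bp wide and all had a prde-1 counterpart, and each gene was covered from end to end in wild type. They belong to 4 large-subunit genes and 1 small-subunit gene. The peak of rpl-27 (eL27, WBGene00004441, chromosome I, 1834883 to 1835438, plus strand) ranked 8 in wild type, ran over 3620 bp and had a −log10 p of 60.9 at its summit, 1995 bp past the 5′ end. In prde-1 it ranked 5, ran over 2510 bp and had its summit at the same distance. The summit lies beyond the gene, which is 556 bp long, so the rank is that of a peak whose summit is outside the gene. The peak of rpl-7A (eL8, WBGene00004419, chromosome IV, 4389143 to 4390590, minus strand) ranked 98 in wild type and 168 in prde-1, and 2 snoRNA genes lie under it. That of rps-13 (uS15, WBGene00004482, chromosome III, 6374097 to 6374997, minus strand) ranked 105 and 143, with summits 209 and 210 bp before the 5′ end. That of rpl-11.1 (uL5A, WBGene00004422, chromosome V, 3585312 to 3586064, minus strand) ranked 127 and 331. That of rpl-3 (uL3, WBGene00004414, chromosome III, 3867854 to 3869587, plus strand) ranked 148 in wild type, and the best of prde-1, which was its upstream peak, ranked 310.

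The widest peaks reached well past the members. The wild type peak at rps-1 (eS1) was 6748 bp wide with its summit 4941 bp before the 5′ end, and a tRNA gene lies under it. In prde-1 that gene had a separate upstream peak of 221 bp, summit 269 bp before the 5′ end, and 59.3% of its bases in peaks. Next were rps-16 (uS9, 3894 bp), rpl-27 (3620 bp), rpl-30 (eL30, 3363 bp) and rpl-22 (eL22, 3166 bp). Of these 5 members, rps-16 had no prde-1 peak within 500 bp of its 5′ end.

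The share of 5′ end peaks missing from the prde-1 list depended on how a peak was counted. The best wild type 5′ end peak had no prde-1 counterpart at 6 of 75 members (8%, interval 3.72% to 16.4%), against 17.5% of protein-coding genes. The comparison lists were low too, at 0 of 33 translation factor genes and 0 of 6 ribosomal genes with other names. Among mitochondrial ribosomal protein genes it was 2 of 41 (4.88%), and among aminoacyl-tRNA synthetase genes 1 of 16 (6.25%). The share without a counterpart was 16.9% of members with a window of 200 bp (15.6% of all), 13.9% in the upper 50% of each list by score (24.1% of all), 18.7% where 50% of the wild type peak had to be covered (26.5% of all) and 2.99% where the summit had to be in the window (17.4% of all). With equal numbers of peaks from each list, the values were 5 of 74 (6.76%) and 7.84%, so most of the gap was not seen when the lists were made equally long. Within parts of the list of like rank the members did not have lower shares than all genes, with 1 of 46 in the top 20% (2.17%, interval 0.385% to 11.3%; 0.742% of all), 3 of 24 in the next 20% (12.5%, interval 4.34% to 31.0%; 3.99% of all), 1 of 4 in the 20% after that (14.3% of all) and the 1 member in the fourth (37.5% of all).

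The peaks without a counterpart had their summits downstream of the 5′ end. They were those of rpl-6 (eL6, rank 2510, summit 1438 bp downstream), rpl-38 (eL38, rank 3001, 736 bp), rpl-16 (uL13, rank 3694, 131 bp), rps-15 (uS19, rank 3896, 909 bp), rps-14 (uS11, rank 6509, 475 bp) and rps-27 (eS27, rank 10459, 543 bp). At rpl-6, rpl-38, rps-15 and rps-14 the upstream peak was called in both lists, with summits 353, 358, 380 and 275 bp before the 5′ end in wild type and 353, 356, 379 and 275 bp in prde-1. At rpl-6, for example, the upstream peak ranked 3744 in wild type and 2375 in prde-1, while the share of the gene in peaks went from 87.7% to 0.

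Of the 75 members with a wild type 5′ end peak, 72 had a prde-1 peak there too (96.0%, interval 88.9% to 98.6%), against 81.0% of protein-coding genes with a wild type peak, and none had a peak in prde-1 alone. The other 3 were rpl-16, rps-16 and rps-27. None of the 3 had an upstream peak in wild type. The nearest prde-1 peaks were 1679, 613 and 517 bp from the 5′ end. Both rpl-16 and rps-16 follow another gene on the same strand, lias-1 and fib-1, the gene of the nucleolar protein fibrillarin, whose end lies within 500 bp upstream. In all, 131 wild type peaks touched a member or its 5′ end, 25 of them with no prde-1 counterpart, and each of the 109 prde-1 peaks there overlapped a wild type peak. Over the whole lists, 36.1% of wild type peaks and 1.91% of prde-1 peaks had no counterpart, without regard to rank.

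The neighbours of ribosomal protein genes differed from those of protein-coding genes as a whole. A protein-coding 5′ end on the other strand lay within 1000 bp upstream at 47 of 78 members (60.3%, interval 49.2% to 70.4%), against 17.7% of protein-coding genes, and to which gene of a pair an upstream peak belongs cannot be told apart. Such a neighbour was not particular to the members. It was found at 22 of 41 translation factor genes (53.7%, interval 38.7% to 67.9%). The counts were 26 of 70 mitochondrial ribosomal protein genes (37.1%) and 11 of 31 aminoacyl-tRNA synthetase genes (35.5%). All 47 members with one had a wild type 5′ end peak, as did 54.3% of the 3539 protein-coding genes with such a neighbour. The 31 members without one still had peaks: 28 at the 5′ end (90.3%, interval 75.1% to 96.7%; 25.5% of 16434 protein-coding genes without such a neighbour) and 24 upstream (77.4%; 16.6%). Of these upstream peaks 0 were lost in prde-1, as at all 64 members with an upstream peak. Over all protein-coding genes, with or without such a neighbour, 13.9% were lost, and rank was not matched here. At 3 divergent pairs both genes are members and share 1 upstream peak: rpl-24.1 with rps-10 (rank 639), rpl-39 with rps-30 (rank 3268) and rpl-36 with rps-14 (rank 7637). These peaks were counted for each gene of the pair, and the 64 members with an upstream peak hold 61 distinct peaks.

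A gene on the same strand ending within 500 bp upstream was found at 8 of 78 members (10.3%, interval 5.29% to 18.95%), against 20.1% of protein-coding genes: rpl-16, rpl-19, rpl-25.1, rpl-27, rps-2, rps-7, rps-16 and rps-17. These had upstream peaks at 3 of 8 (37.5%, interval 13.7% to 69.4%), against 61 of the other 70 members (87.1%, interval 77.3% to 93.1%). Among protein-coding genes the corresponding shares were 14.7% with such a neighbour and 23.4% without. At least 50% of the gene was in wild type peaks at 7 of 8 and at 53 of the other 70 (75.7%), against 4.25% and 5.45% of protein-coding genes. A tRNA, snoRNA or other small RNA gene lay under the best peak at 13 of the 75 members with such a peak, a tRNA gene among them at 2. Inside the gene itself, 13 members held a small RNA gene. No share over all protein-coding genes stands beside these counts.

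Gene copies could differ. Of the genes for uL5, rpl-11.1 had a single wild type peak of 3076 bp from 454 bp before the 5′ end to beyond the 3′ end, which in prde-1 was called as an upstream peak of 337 bp (rank 1490) and a peak on the gene of 2554 bp (rank 331). Its copy rpl-11.2 (uL5B, chromosome X) had an upstream peak of 319 bp at rank 2437, summit 393 bp before the 5′ end, and a weak peak on the gene at rank 10643. In prde-1 the upstream peak of rpl-11.2 had its summit at the same base and rank 1886, and the peak on the gene was not called. Of the genes for uL23, rpl-25.2 had 3 wild type peaks, at ranks 4682, 6865 and 7398, and all 3 had prde-1 counterparts, while rpl-25.1 on chromosome X had none in either list. The genes for L41, rpl-41.1 and rpl-41.2, lie in tandem and share their best wild type peak (rank 584, 1843 bp), whose summit is 270 bp before the 5′ end of rpl-41.2. In prde-1 rpl-41.2 had an upstream peak of its own at rank 1301. The pair rpl-24.1 (eL24) and rpl-24.2 differs in product, and rpl-24.2 had an upstream peak of 655 bp at rank 3736 with 45.9% of the gene in wild type peaks and none in prde-1 peaks. Names can mislead as to copies: rpl-7 (uL30) and rpl-7A (eL8), and rpl-36 (eL36) and rpl-36.A (eL42), are different proteins.

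The 2 members on chromosome X are rpl-11.2 and rpl-25.1, 1 with a wild type 5′ end peak and 1 without, and of the 76 on the autosomes 74 had one (97.4%, interval 90.9% to 99.3%). The members are spread over the autosomes, 23 on chromosome I, 10 on II, 18 on III, 17 on IV and 8 on V.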

How the data were processed

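ATAC-seq was done on germ nuclei of 3 wild type and 3 prde-1 samples. The authors trimmed reads with cutadapt and mapped them to ce11 with Bowtie2. They discarded poorly mapped, duplicate and mitochondrial reads, downsampled and then merged the replicates, kept short fragments with ends moved to the Tn5 cut site, and called peaks with Genrich. Tool versions are not given in the sources used here. Merging removes replicate spread, and fewer or shallower reads give fewer and narrower peaks. The deposited score sums −log10 p over the bases of a peak (an area), so it grows with width. The deposited −log10 p is that at the summit, unadjusted, and the deposited summit offset was added to the peak start. The lists hold 0 columns of values per sample.

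Chromosome lengths of the RefSeq WBcel235 sequence were checked against the peaks, and none runs past its chromosome. A peak was at the 5′ end if it came within 500 bp of it, and had a counterpart if at least 1 base overlapped a peak of the other list. Neighbours, letters near the 5′ end and lists of translation genes and tissue markers were counted likewise. Named genes are the 5 best-ranked, the 5 widest, those whose best peak lacks a counterpart or is in prde-1 alone, copies by name, members on X, the 3 nearest to each side of 500 bp and up to 3 with a peak in the gene and none within 500 bp of the 5′ end (there were none), with examples beyond this rule chosen after their values were seen. Members and lists were chosen with earlier results of these data known. Counting was tested on simulated peaks. Python 3.11.15 with numpy, scipy and matplotlib was used. Alternatives were window sizes, shorter lists, other peak, summit and counterpart rules, any transcript's 5′ end and subsets of members.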

Additional observations from a re-analysis of the deposited data

How the results depend on the processing

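No paired analysis was possible because the authors merged the replicates of each genotype before calling peaks, which also leaves no replicate to leave out. Of 107 values under other settings, 90 stayed within the 95% interval of the reported share or median over members, 16 moved and 1 changed sign; some of these settings were chosen after seeing the data. With a window of 200 bp, 5′ end peaks were found at 83.3% of members in wild type and 67.9% in prde-1 (24.1% and 19.5% of protein-coding genes), 16.9% of the wild type ones had no counterpart, and the median summit lay 98 bp past the 5′ end in wild type instead of at −249 bp and at −165 bp in prde-1. Requiring the summit inside the window gave 85.9% in wild type, 88.5% with the gene included, a median rank of 2939, a median summit at −280 bp and a loss of 2.99%. Peaks covering the 5′ end itself were found at 46.2% in wild type and 32.1% in prde-1, against 13.2% and 9.18% of protein-coding genes. Members without a divergent neighbour had prde-1 peaks at 83.9%. Requiring 50% of the wild type peak to be covered raised the loss to 18.7% of members and 26.5% of all. Ranked by −log10 p, the prde-1 median was 1161 (3707 for all). The upper 50% of each list by score put at least 50% of the gene in peaks at 65.4% of members in wild type and 33.3% in prde-1. Members stayed above all protein-coding genes in each share of 5′ end peaks named here. Limits are the absence of replicate values and of depth, and the score, which mixes height and width.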
